A study of Mus musculus with 15 samples.

Results

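The subject of this report is a set of 5 mature miRNAs from 3 hairpins of 2 imprinted mouse loci: mmu-miR-298-5p, mmu-miR-296-5p and mmu-miR-296-3p of the Gnas region, and mmu-miR-335-5p and mmu-miR-335-3p of the Mest gene (mmu, the prefix for mouse, is left out below). They were taken by name, and all 5 were present among the 683 distinct miRNA names of the deposited tables. The loci were selected on measured values, with earlier results of these data known, among them small unadjusted p-values of miR-298-5p and miR-296-3p in treated against untreated haemorrhage. That comparison is therefore given below as a description only. The comparisons with sham share ICH or BYHWD libraries with it, so their values for these miRNAs are not independent of the choice either.

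Small RNA was sequenced from the ipsilateral basal ganglia of 15 mice, 5 per group, killed at day 14. BYHWD mice had a bleed inside the brain, an intracerebral haemorrhage (ICH), and received Buyang Huanwu decoction, a herbal mixture of traditional Chinese medicine, by daily gavage at 6.19 g/kg for 14 days. ICH mice had the haemorrhage and received distilled water by gavage, and sham mice had the sham operation and the same water. All 3 groups are given as wild type and were perfused with saline under pentobarbital; strain, age and the way the bleed was induced are not given in the sources used here. Each library came from a separate mouse. The labels give brain as the tissue but also speak of an exosome pellet at RNA extraction, so whether tissue or vesicle RNA was read is not known here. All 8 miRNAs of a neuronal marker list were tested and read in every group, with a summed level of 104707 to 156937 CPM (counts scaled to a common library total) in BYHWD libraries, 134075 to 165877 in ICH libraries and 130542 to 157881 in sham libraries.

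An imprinted gene is read mainly from the copy inherited from a given parent. Mest and the antisense transcript Nespas of the Gnas region are expressed from the paternal copy in the mouse, and miR-296 and miR-298 are reported to follow the paternal copy as well. A miRNA hairpin is cut into a 5p and a 3p arm, and the arm that is loaded into an Argonaute protein pairs with messenger RNAs mainly through its seed, bases 2 to 8. In human brain endothelial cells miR-296 is known for lowering HGS, a protein that sorts growth factor receptors for degradation. In mouse cells miR-298 is known for targeting the mRNA of Bace1, the beta-secretase. In human breast cancer cells miR-335 is known for lowering SOX4 and tenascin C.

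The mature sequences are shown because they set the arms and loci apart: no seed is shared among the 5. They are from RefSeq (GRCm38.p6), 5′ to 3′, with bases 2 to 8 in capitals.
miR-298-5p: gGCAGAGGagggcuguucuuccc
miR-296-5p: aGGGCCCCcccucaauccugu
miR-296-3p: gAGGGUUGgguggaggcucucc
miR-335-5p: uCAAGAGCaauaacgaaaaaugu
miR-335-3p: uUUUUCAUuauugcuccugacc

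The sequences of the 2 loci differ in composition. A and U made up 34.8% of miR-298-5p, 33.3% of miR-296-5p and 31.8% of miR-296-3p, against 69.6% of miR-335-5p and 63.6% of miR-335-3p. A RefSeq sequence was matched for 553 of the 652 miRNAs tested, and among these no other miRNA had the seed of any of the 5.

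The hairpins show where each arm lies, and both annotated arms are in capitals.
Mir298: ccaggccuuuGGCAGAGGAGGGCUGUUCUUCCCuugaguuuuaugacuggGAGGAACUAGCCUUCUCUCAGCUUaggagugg
Mir296: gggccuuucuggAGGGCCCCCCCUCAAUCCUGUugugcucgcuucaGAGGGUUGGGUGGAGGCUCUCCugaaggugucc
Mir335: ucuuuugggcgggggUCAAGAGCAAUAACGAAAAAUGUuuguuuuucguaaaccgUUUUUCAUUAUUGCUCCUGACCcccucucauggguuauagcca

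Mir298 lies at chr2:174267504-174267585 and Mir296 at chr2:174267047-174267125, both on the minus strand of GRCm38, with 378 bases between them. In the GENCODE vM21 annotation no other gene overlaps either hairpin. The 3′ end of Nespas, on the same strand, lies 13651 bases upstream of Mir298, and Gnas is on the plus strand from base 174284320. Mir335 lies at chr6:30741299-30741396 on the plus strand, inside Mest (30723547 to 30748465, plus strand). It overlaps 0 Mest exons and so lies in an intron. Mest and Nespas transcripts were not analysed here.

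With 1 row kept per name, total counts ran from 4684611 to 9860236 per library, and the 5 miRNAs took 0.0859 to 0.178% of them. In the deposited tables every count stands 1 row below its name, so that the counts read here as miR-298-5p, for instance, are printed beside miR-144-5p. Rows that repeat a name should hold like counts: after a move of 1 row, 90 of 103 such pairs differed by under 0.1 (log2), and before it 27 did. Libraries sham 4 and sham 5 stood apart: their TMM scaling factors, which correct for differences in library composition, were 0.667 and 0.721, against 0.954 to 1.19 in the other 13. All levels below are CPM on TMM-scaled totals, and results that involve sham are also given without these libraries.

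Both miR-335 arms were the most abundant of the set. Over all 15 libraries miR-335-3p averaged 543 CPM and ranked 127 of 652 tested miRNAs, and miR-335-5p averaged 493 CPM and ranked 130. Then came miR-298-5p with 150.3 CPM (rank 207), miR-296-3p with 19.1 CPM (rank 370) and miR-296-5p with 9.81 CPM (rank 424). The median tested miRNA had 32.7 CPM. The ranges of the miR-335 arms, 432 to 741 CPM for 3p and 269 to 1557 CPM for 5p, overlapped, so those neighbours were not separated. The range of miR-298-5p, 73.5 to 283 CPM, overlapped miR-335-5p at its upper end. It lay above that of miR-296-3p (11.7 to 29.8 CPM), which overlapped that of miR-296-5p (5.68 to 18.3 CPM). The other arm of the miR-298 hairpin, miR-298-3p, had 209 counts over all libraries and averaged 1.82 CPM.

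**Figure D1:**
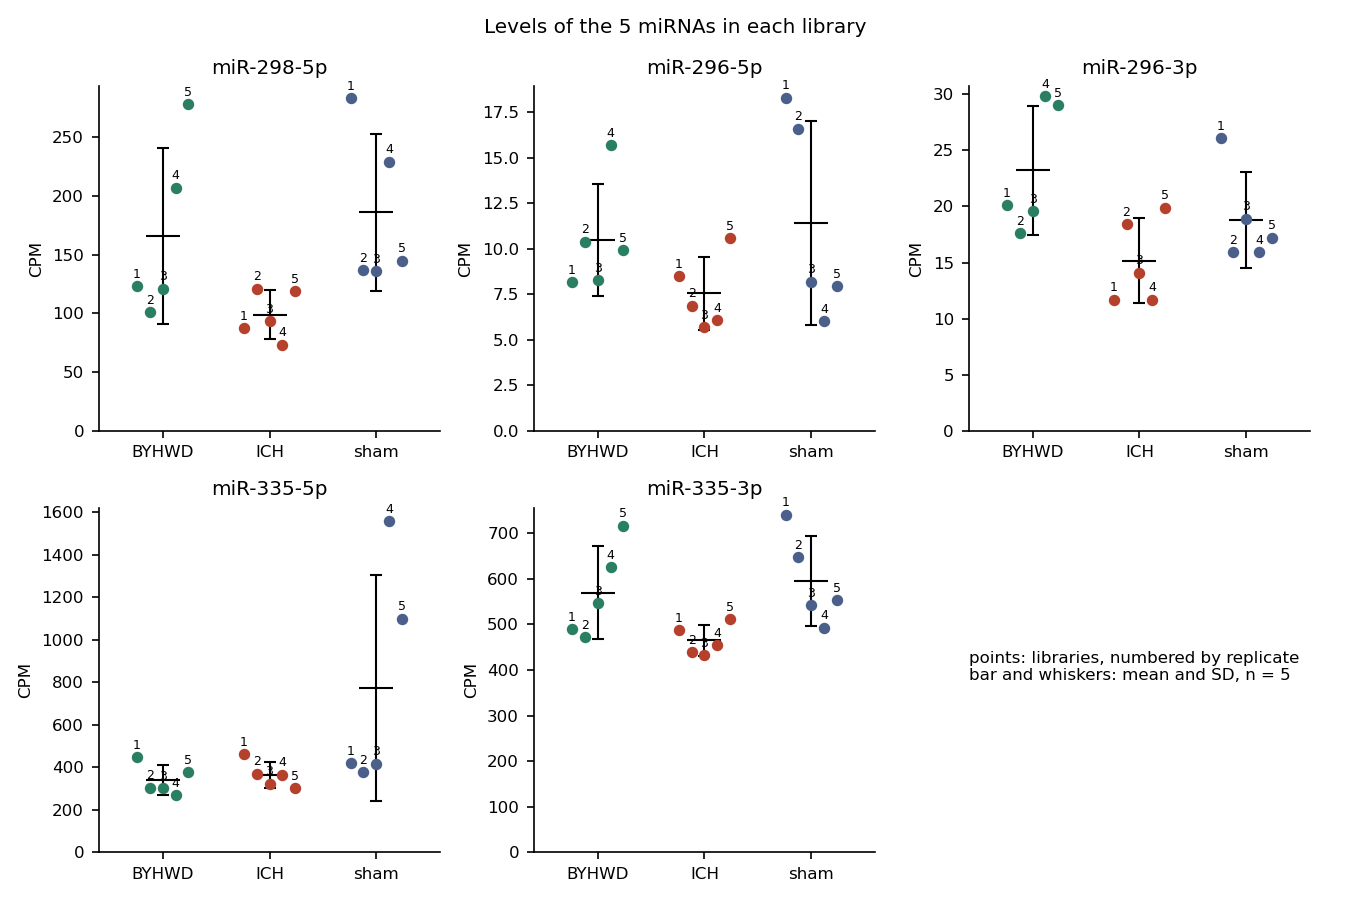
Level of each of the 5 miRNAs in every library, in CPM on TMM-scaled totals (linear axis with 0 at its foot), with BYHWD, ICH and sham from left to right; points are libraries numbered by replicate, and bars with whiskers are the mean and SD (n = 5). All 5 ICH points of miR-298-5p lie at or below 121 CPM and all sham points at or above 136 CPM, and miR-335-5p reaches 1557 and 1100.0 CPM in sham 4 and sham 5.

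In ICH against sham all 5 miRNAs had lower fitted levels in ICH, and none passed the adjusted threshold in edgeR's quasi-likelihood test. With all libraries the log2 differences ran between −1.09 (miR-335-5p) and −0.31 (miR-296-3p), but without sham 4 and sham 5 they ran between −0.92 (miR-296-5p) and −0.16 (miR-335-5p). Of all 652 tested miRNAs 0.767% were called in this comparison, all of them higher in ICH. At an unadjusted p under 0.05, 3 of the 5 were lower in ICH (miR-298-5p, miR-335-3p and miR-335-5p), against 11.3% of all tested miRNAs. Their median log2 fold change was −0.60, against −0.02 for all tested miRNAs, of which 52.3% lay below 0. Since the choice of the set used these ICH libraries, that count and median are a description and are not read against the other miRNAs. DESeq2 called miR-298-5p and miR-335-5p lower, each with an adjusted p of 0.0277, where it called 4.29% of tested miRNAs lower, and limma-voom called 0 of the 5. In bulk samples, fewer cells that make a miRNA and less of it per cell cannot be told apart.

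Markers of other cell types moved in the same comparisons. In ICH versus sham all 5 miRNAs of a myeloid list had values above 0 (median log2 fold change 1.70) and 3 were called higher, against 0.767% of all tested miRNAs. Among these, miR-155-5p, a miRNA of activated macrophages, had 2.06 (SE 0.23; adjusted p = 6.26e-05 in edgeR). The summed myeloid level was 195 to 567 CPM in BYHWD libraries, 278 to 492 CPM in ICH libraries and 111 to 238 CPM in sham libraries. All 4 miRNAs of a fibroblast list also had values above 0 in ICH versus sham (median 0.97), with 0 called by edgeR or limma-voom. DESeq2 called 2 of them higher, where it called 20 of 652 tested miRNAs higher. All 4 had an unadjusted edgeR p under 0.05, as did 137 of 652 tested miRNAs in either direction, 74 of them lower in ICH. The summed fibroblast level was 269 to 548 CPM in BYHWD libraries, 193 to 526 CPM in ICH libraries and 155 to 241 CPM in sham libraries. In BYHWD versus sham the medians were 1.58 (myeloid, 3 of 5 called higher) and 1.21 (fibroblast, 2 of 4 called higher). In edgeR 1.99% of all tested miRNAs were called higher there. No miRNA of either list was at 0 over the libraries, and the part of these cell types in the values of the 5 miRNAs was not tested.

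For miR-298-5p, the Bace1-targeting miRNA of the Gnas region, ICH libraries 1 to 5 had 87.5, 121, 93.6, 73.5 and 119 CPM, against 283, 137, 136, 229 and 145 CPM in sham libraries. The highest ICH value lay below the lowest sham value, so the groups did not overlap; 1.38% of tested miRNAs were lower in ICH in this way. Mean levels were 98.9 ± 20.5 CPM in ICH and 186 ± 66.9 CPM in sham (SD, n = 5 each). The log2 fold change was −0.91 (SE 0.29), or 0.532-fold, with an edgeR adjusted p of 0.0984. Without sham 4 and sham 5 it was −0.91 (SE 0.33). On plain library totals, a setting chosen after seeing the data, the groups overlapped: ICH libraries reached 129 CPM and sham 5 had 104 CPM.

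The arms of miR-296 had fewer reads behind them, with 38 to 113 counts of miR-296-5p per ICH library and 31 to 133 per sham library. ICH libraries 1 to 5 had 8.50, 6.88, 5.68, 6.09 and 10.6 CPM of miR-296-5p, against 18.3, 16.6, 8.20, 6.01 and 7.96 CPM in sham libraries. Sham 1 and sham 2 were above every ICH library, and the other sham libraries lay within the ICH range. Its log2 fold change was −0.60 (SE 0.30; adjusted p = 0.263 in edgeR), and leaving out sham 4 and sham 5 it was −0.92 (SE 0.29, adjusted p = 0.116). For miR-296-3p, ICH libraries had 11.7, 18.4, 14.1, 11.7 and 19.9 CPM, against 26.1, 15.9, 18.9, 15.9 and 17.2 CPM in sham libraries. ICH 1, 3 and 4 lay below every sham library and sham 1 above every ICH library, with the rest overlapping. On plain library totals, a setting chosen after seeing the data, sham 4 (10.6 CPM) lay below every ICH library (11.2 to 21.6 CPM). With TMM scaling the fitted difference of miR-296-3p was −0.31 on the log2 scale (SE 0.21, adjusted p = 0.417 in edgeR). Leaving out sham 4 and sham 5, the difference was −0.42 (SE 0.24, adjusted p = 0.379 in edgeR).

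For miR-335-5p, ICH libraries 1 to 5 had 462, 371, 323, 366 and 303 CPM, against 421, 378, 418, 1557 and 1100.0 CPM in sham libraries. ICH 1 lay above 3 sham libraries, and sham 4 and sham 5 lay far above the rest. In edgeR the log2 fold change came to −1.09 (SE 0.35, adjusted p = 0.101). With sham 4 and sham 5 left out it was −0.16 (SE 0.17, adjusted p = 0.645), so those libraries set most of its size. In the same libraries a list of 4 oligodendrocyte miRNAs summed to 24226 CPM (sham 4) and 20803 CPM (sham 5), against 7153 to 11267 CPM in the other 13. Nearly all of that sum was miR-219a-2-3p, at 23192 CPM (sham 4) and 19415 CPM (sham 5), against 5756 to 9721 CPM in the other 13. The other members of the list were not high there: miR-219a-5p was in both libraries within the 78.1 to 271 CPM of the other 13, and miR-338-3p had 301 and 412 CPM, below their 513 to 848 CPM. For miR-338-5p the values were 622 and 764 CPM, against 735 to 1265 CPM. The part of miR-219a-2-3p or of oligodendrocytes in the miR-335-5p values was not tested.

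The other arm was not high in sham 4 and sham 5. ICH libraries had 488, 439, 432, 454 and 511 CPM of miR-335-3p, against 741, 648, 542, 493 and 553 CPM in sham libraries. Sham 4 was the lowest sham library here, and ICH was lower in 24 of 25 pairs of libraries. That order depends on the TMM scaling. On plain library totals, a setting chosen after seeing the data, sham 4 (329 CPM) and sham 5 (398 CPM) lay below every ICH library (427 to 554 CPM). The edgeR log2 fold change was then −0.28 (SE 0.23). In edgeR the difference was −0.36 on the log2 scale (SE 0.14, adjusted p = 0.149), and leaving out sham 4 and sham 5 it was −0.48 (SE 0.15, adjusted p = 0.114).

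**Figure D2:**
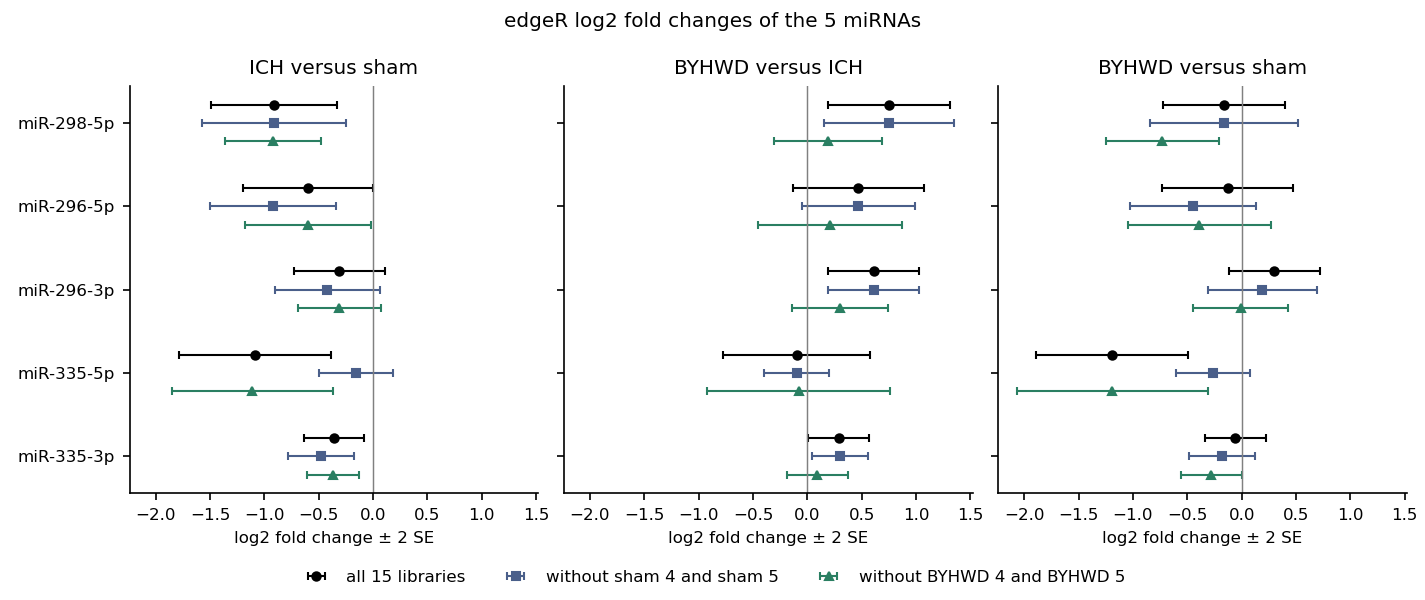
Log2 fold changes of the 5 miRNAs in ICH versus sham, BYHWD versus ICH and BYHWD versus sham (edgeR, with whiskers of 2 standard errors either side), for all 15 libraries (circles), without sham 4 and sham 5 (squares) and without BYHWD 4 and BYHWD 5 (triangles). The value of miR-335-5p in ICH versus sham is −1.09 with all libraries and −0.16 without sham 4 and sham 5, and that of miR-298-5p in BYHWD versus ICH is 0.75 with all libraries and 0.19 without BYHWD 4 and BYHWD 5.

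In BYHWD against sham none of the 5 passed the adjusted threshold in edgeR, where 2.30% of all tested miRNAs were called. At an unadjusted p under 0.05 only miR-335-5p was lower in BYHWD, against 11.8% of all tested miRNAs. DESeq2 called that miRNA (log2 fold change −1.22, adjusted p = 0.0161) where it called 4.60% of tested miRNAs lower, and limma-voom called 0 of the 5. BYHWD libraries 1 to 5 had 448, 305, 302, 269 and 377 CPM of miR-335-5p, against the sham values given above, so that 4 BYHWD libraries were below every sham library and BYHWD 1 was above 3 of them. This gave a log2 fold change of −1.19 (SE 0.35; adjusted p = 0.0933 in edgeR). With sham 4 and sham 5 left out it was −0.26 (SE 0.17, adjusted p = 0.467). It was called by edgeR when sham 1, 2 or 3 was left out in turn, with adjusted p of 0.0383, 0.0420 and 0.0305, where 4.74%, 1.38% and 5.05% of tested miRNAs were called lower. In each of these settings sham 4 and sham 5 are among the 4 sham libraries left.

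In all, 4 of the 5 had values below 0 (median −0.13), against 48.3% of all tested miRNAs (median 0.02). For the other 4 the log2 fold changes of BYHWD versus sham were −0.16 (SE 0.28) for miR-298-5p, −0.13 (SE 0.30) for miR-296-5p, 0.30 (SE 0.21) for miR-296-3p and −0.06 (SE 0.14) for miR-335-3p. Their edgeR adjusted p-values ran between 0.459 and 0.866, which does not show that the groups were alike. Without sham 4 and sham 5 the values were, in the same order, −0.16 (SE 0.34), −0.45 (SE 0.29), 0.19 (SE 0.25) and −0.18 (SE 0.15). Without TMM scaling the median of all tested miRNAs in this comparison moved to 0.15, from 0.02 with it, and the value of miR-335-3p was then 0.04, below that median.

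In BYHWD against ICH, the comparison whose results were known when the set was chosen, 4 of the 5 miRNAs had higher mean levels in BYHWD. The remaining miR-335-5p had a value below 0, against 48.9% of all tested miRNAs. Among BYHWD and ICH libraries, BYHWD 4 and BYHWD 5 held the highest values of 3 of the 5. None was called by edgeR (adjusted p of 0.916 to 0.996), DESeq2 or limma-voom, and 0.00% of all tested miRNAs were called in this comparison by edgeR. At an unadjusted p under 0.05, 3 of the 5 were higher in BYHWD, against 3.53% of all tested miRNAs; the choice of the set used this contrast, so nothing is read from that count.

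BYHWD libraries 1 to 5 had 123, 101, 121, 207 and 278 CPM of miR-298-5p, against the 73.5 to 121 CPM of ICH libraries. BYHWD 2 lay inside the ICH range and BYHWD 1 and 3 lay just above it. Means were 166 ± 74.8 CPM in BYHWD and 98.9 ± 20.5 CPM in ICH (SD, n = 5 each), with a log2 fold change of 0.75 (SE 0.28). Without BYHWD 4 and BYHWD 5, a setting chosen after seeing the data, the BYHWD mean was 115 ± 11.9 CPM and the log2 fold change 0.19 (SE 0.25).

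BYHWD libraries had 20.1, 17.6, 19.6, 29.8 and 29.0 CPM of miR-296-3p, against 11.7 to 19.9 CPM in ICH libraries. BYHWD 1, 4 and 5 were above every ICH library. The log2 fold change was 0.61 (SE 0.21), and 0.30 (SE 0.22) without BYHWD 4 and BYHWD 5. For miR-296-5p, BYHWD libraries had 8.17, 10.4, 8.26, 15.7 and 9.93 CPM, and BYHWD 4 alone was above all ICH libraries.

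BYHWD libraries had 489, 472, 547, 625 and 717 CPM of miR-335-3p, against 432 to 511 CPM in ICH libraries. The log2 fold change was 0.29 (SE 0.14), and 0.09 (SE 0.14) without BYHWD 4 and BYHWD 5. For miR-335-5p it was −0.10 (SE 0.34), and the BYHWD mean of 340.4 ± 72.0 CPM lay within 1 SD of the ICH mean of 365 ± 61.2 CPM. That SE comes from a fit in which all 15 libraries share the estimate of spread. In a fit without sham 4 and sham 5 the value was −0.10 (SE 0.15).

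Levels of some marker lists also stood apart in BYHWD 4 or BYHWD 5. A list of 3 neuroendocrine miRNAs (miR-7a-5p, miR-7b-5p and miR-375-3p) summed to 64938 and 107336 CPM in BYHWD 4 and BYHWD 5, against 24762 to 35262 CPM in the other BYHWD libraries, 22868 to 34569 CPM in ICH libraries and 20076 to 61869 CPM in sham libraries. That sum was nearly all miR-7a-5p and miR-7b-5p. The third, miR-375-3p, had 84.8 and 89.2 CPM in BYHWD 4 and BYHWD 5, within the 51.6 to 115 CPM of the other 13 libraries. A list of 4 erythroid miRNAs summed to 429 CPM in BYHWD 4 and 366 CPM in sham 1, against 108 to 195 CPM in the other libraries, BYHWD 5 included (130.1 CPM). The neuronal list was lowest in BYHWD 5, at 104707 CPM, against 130542 to 165877 CPM in the other 14. The part of these markers in the values of miR-298-5p, miR-296-3p and miR-335-3p was not tested.

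The ratio of 5p to 3p counts within a hairpin does not depend on library scaling. For miR-335 it was 0.916, 0.647, 0.553, 0.431 and 0.526 in BYHWD libraries 1 to 5, then 0.947, 0.844, 0.749, 0.806 and 0.594 in ICH libraries, and 0.569, 0.583, 0.771, 3.16 and 1.99 in sham libraries. Only in sham 4 and sham 5 did the 5p arm exceed the 3p arm. The mean log2 ratio was −0.75 ± 0.41 in BYHWD, −0.36 ± 0.25 in ICH and 0.14 ± 1.12 in sham (SD, n = 5 each). The difference was −0.50 for ICH versus sham (exact permutation test, two-sided, p = 0.421, adjusted p = 0.561 over 4 tests). It was −0.89 for BYHWD versus sham (exact permutation test, p = 0.167, adjusted p = 0.561). The smallest p this design allows is 0.00794. At an unadjusted p under 0.05 this test found 12.6% of 103 hairpins in ICH versus sham and 11.7% in BYHWD versus sham. Without sham 4 and sham 5 the ICH ratio was higher than the sham ratio, by 0.30 on the log2 scale. The difference for BYHWD versus sham was then −0.09 (exact permutation test, adjusted p = 0.750), so those libraries set most of its size.

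The spread of this ratio was wide among hairpins. Over all 15 libraries its log2 range was 2.87, rank 5 of the 103 hairpins, those whose arms both averaged at least 10 CPM, against a median of 1.29. Over the 13 libraries without sham 4 and sham 5 it was 1.14, rank 30, against a median of 0.89.

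For miR-296 the 3p arm was the more abundant in 14 of 15 libraries. The 5p to 3p ratio was 0.407, 0.588, 0.421, 0.527 and 0.343 in BYHWD libraries 1 to 5, then 0.724, 0.373, 0.404, 0.521 and 0.531 in ICH libraries, and 0.701, 1.05, 0.434, 0.378 and 0.463 in sham libraries. The exception was sham 2, and the groups overlapped. Exact permutation tests gave p = 0.619 for ICH versus sham (difference −0.18, adjusted p = 0.619) and p = 0.341 for BYHWD versus sham (difference −0.32, adjusted p = 0.561). Without sham 4 and sham 5 these differences were −0.46 and −0.60 (exact permutation test, adjusted p = 0.333 and 0.321). Between the neighbouring hairpins, the log2 ratio of miR-298-5p to the summed miR-296 arms was 2.22 ± 0.37 in BYHWD, 2.12 ± 0.12 in ICH and 2.59 ± 0.49 in sham (SD, n = 5 each), and these ranges overlapped.

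**Figure D3:**
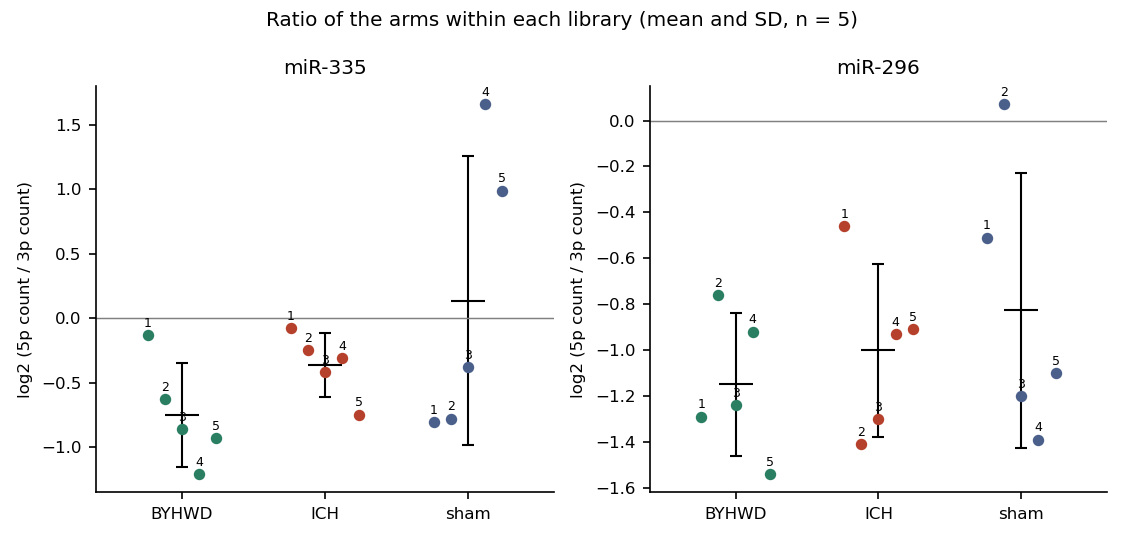
Log2 ratio of 5p to 3p counts of the miR-335 and miR-296 hairpins in each library, numbered by replicate, with BYHWD, ICH and sham from left to right; bars with whiskers are the mean and SD (n = 5). For miR-335, sham 4 (ratio 3.16) and sham 5 (ratio 1.99) lie above 0 and the other 13 libraries below it.

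For each of the 5 miRNAs the spread between mice exceeded counting error in all 3 groups. For miR-296-5p, the least read of the set, the coefficient of variation was 29.3% in BYHWD, 26.6% in ICH and 49.1% in sham, where Poisson counting alone gives 12.1%, 13.4% and 13.2%. For miR-298-5p it was 45.0%, 20.7% and 36.0% in the same groups, against medians over all tested miRNAs of 19.6%, 16.8% and 25.8%. The tightest values were those of miR-335-3p in ICH, 7.21%. PCR reads without molecular identifiers are not independent molecules, so such counting errors are lower limits.

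Across the 13 libraries other than sham 4 and sham 5, log2 CPM was centred on each group's mean and the 10 pairs of the 5 miRNAs were compared. The pair from the neighbouring hairpins, miR-298-5p and miR-296-3p, fell into separate sets of libraries, split here at the group mean of miR-298-5p. The side of miR-298-5p is thus fixed by the split, and only that of miR-296-3p is an observation. In BYHWD 4, BYHWD 5, ICH 2, ICH 5 and sham 1 both were above their group mean, by 0.29 to 0.85 for miR-298-5p and by 0.31 to 0.42 for miR-296-3p. In the other 8 libraries both were below it. Over both sets together the pair had r = 0.91 and rho = 0.83 (permutation within groups, adjusted p = 0.00300 and 0.0147 over 10 pairs). Without BYHWD 5 and sham 1, the 2 libraries farthest from the median of miR-298-5p, r was 0.92. Those values include the step between the sets. Within the 8, chosen for low miR-298-5p and so narrow in range, r was 0.48 (exact permutation p = 0.235, adjusted p = 0.588 over 10 pairs) and rho 0.60 (exact permutation p = 0.132); so few libraries could show only a strong relation. The set of 5 is too small for a test.

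The same sets differed in miR-335-3p, which is encoded on another chromosome. It was above its group mean in 4 of the 5 upper libraries (−0.08 to 0.35, with ICH 2 the exception) and in 2 of the 8 lower libraries (−0.25 to 0.07). No relation was detected between the arms of miR-335 over the 13 libraries, with r = −0.06 and rho = 0.00 (permutation p = 0.871 and 1.00, adjusted p = 0.909 for r). The arms of miR-296 had r = 0.46 and rho = 0.36 (permutation p = 0.162 and 0.252, adjusted p = 0.279 for r). Without the 2 libraries farthest from the median, r was −0.03 for miR-335 and 0.50 for miR-296. The miR-296 values pool the upper and lower libraries, between which miR-296-3p is split too, so no relation is read from them. Within the 8 lower libraries the miR-296 arms had r = −0.80 (exact permutation p = 0.0207, adjusted p = 0.207). Their rho was −0.76 there (exact permutation p = 0.0368, adjusted p = 0.368). The sign thus differed from that over the 13 libraries, and neither value passed the adjusted threshold.

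**Figure D4:**
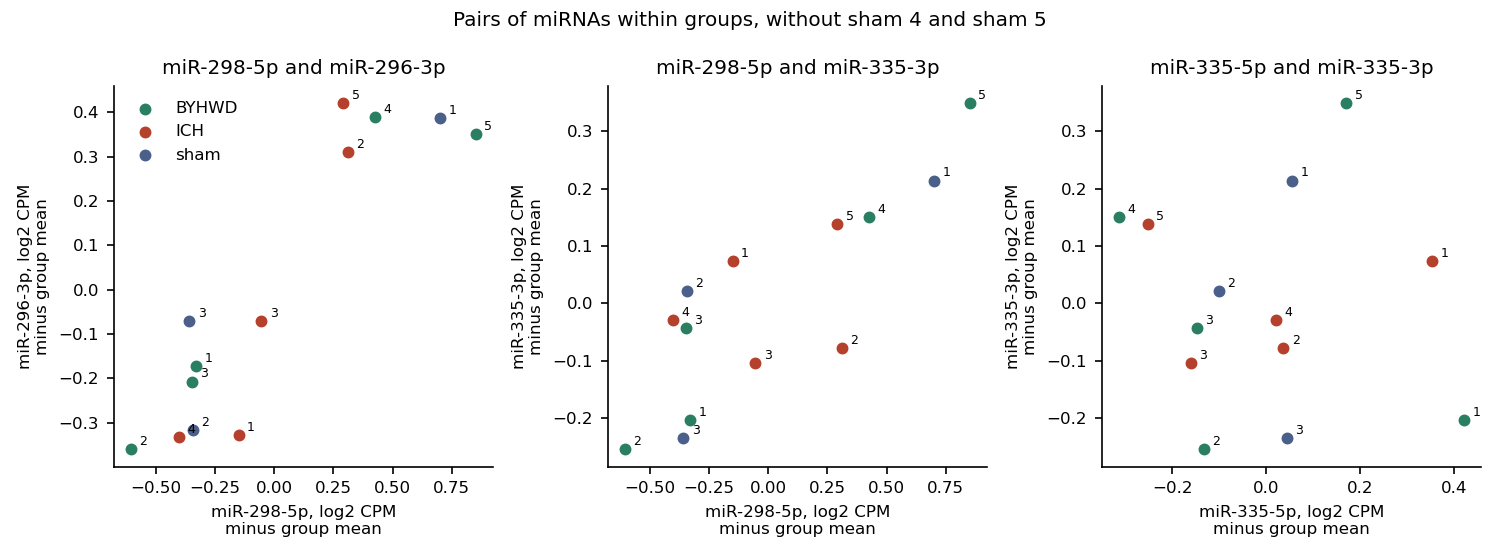
Log2 CPM minus the group mean in 13 libraries, with miR-298-5p against miR-296-3p, miR-298-5p against miR-335-3p, and miR-335-5p against miR-335-3p; points are coloured by group. In the first panel 5 libraries lie above their group mean in both miRNAs and 8 below it, and the arms of miR-335 in the last panel show no trend.

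The 3 other miRNAs most alike in pattern to each of the 5 were taken by Pearson's r of log2 CPM over the same 13 libraries, without centring, among 416 miRNAs averaging at least 10 CPM. They are a description, since the libraries share depth, scaling and treatment. For miR-298-5p they were miR-676-3p (r = 0.91), miR-653-5p (0.91) and miR-770-5p (0.89). For miR-296-3p they were miR-653-5p (0.93), miR-770-5p (0.89) and miR-758-3p (0.86), so 2 of 3 were those of miR-298-5p. For miR-296-5p they were miR-369-3p (0.82), miR-369-5p (0.80) and miR-107-3p (0.80). For miR-335-3p they were miR-676-3p (0.93), miR-760-3p (0.87) and miR-3099-3p (0.79). For miR-335-5p they were miR-376b-3p (0.88), miR-185-5p (0.68) and miR-30e-5p (0.67), none of them shared with its other arm. Of these 12 distinct miRNAs, 5 belong to the imprinted Dlk1-Dio3 region, as do 70 of the 416 candidates (16.8%).

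Other imprinted miRNA loci were read beside the set. The miRNAs of the Dlk1-Dio3 region are expressed from the maternal copy. Of 90 tested, 0 were called by edgeR in ICH versus sham, with a median log2 fold change of −0.22. Of the 90, 73 had values below 0. That is 81.1% below 0, against 52.3% of all tested miRNAs. At an unadjusted p under 0.05, 25 (27.8%) were lower, against 11.3% of all tested. DESeq2 called 12 (13.3%) lower, against 4.29% of all tested, and limma-voom called 0. In BYHWD versus sham 55 lay below 0 (median −0.12) and edgeR called 1 lower, miR-379-5p, named after its value was seen (log2 fold change −0.87, SE 0.19, adjusted p = 0.0178). Its most abundant miRNAs, miR-127-3p, miR-381-3p and miR-300-3p, had log2 fold changes of −0.09, 0.24 and −0.09 in ICH versus sham. The 38 tested miRNAs of the paternally expressed Sfmbt2 intron had medians of 0.09 in ICH versus sham and 0.16 in BYHWD versus sham, with 0 called in either by any of the 3 tools. Before adjustment edgeR had 0 with p under 0.05 in ICH versus sham and 6 (15.8%), all higher, in BYHWD versus sham, where 9.36% of all tested miRNAs were higher in this way. The values of its miR-467a-5p and miR-467b-5p (−0.18 each) rest on shared counts and are uncertain as to name, and that of miR-467c-5p was 0.02. For miR-483-3p of Igf2, at a mean of 1.46 CPM, the value was 0.54 (edgeR adjusted p = 0.417), and for miR-184-3p, at 9.70 CPM, it was 0.30 (adjusted p = 0.573). The medians of the 5 miRNAs were −0.60 in ICH versus sham and −0.13 in BYHWD versus sham, and no difference from these loci was tested.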

How the data were processed

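The deposited values are whole-number read counts per mature miRNA that the authors did not normalize, 1 table per mouse, made with cutadapt, Bowtie and edgeR per the submitters' processing notes. Not given in the sources used here are versions and the handling of reads that match several loci. Those notes name hg38, a human build, although samples and names are mouse. Per the labels' protocols libraries were made with the NEBNext kit and selected by size.

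In 15 of 15 tables the first count equals the library number, so names were moved by 1 row, and of rows repeating a name the one with most counts was used. All 652 miRNAs passing filterByExpr, the 5 described among them, were tested in 1 fit of 15 libraries with edgeR 4.0.16 (quasi-likelihood, robust, TMM) under R 4.3.3, adjusted by Benjamini-Hochberg over all 652 and called at 0.05. The test was checked on simulated counts with 200 changed miRNAs. It recovered 51.6% of 1.5-fold changes in ICH versus sham, 36.2% in BYHWD versus ICH and 45.9% in BYHWD versus sham. For 2-fold changes these shares were 85.1%, 81.8% and 83.1%, so smaller differences can go uncalled. CPM used TMM-scaled totals, and log2 CPM a prior count of 2. Log2 arm ratios (pseudocount 0.5) had exact permutation tests, and correlations 100000 permutations. Alternatives were DESeq2 1.42.0, limma-voom (limma 3.58.1), other scaling, no filter, all rows, a replicate block and libraries left out. Other miRNAs named are the 3 most alike each of the 5, any sharing a seed, and the most abundant of other imprinted loci (3 each of Dlk1-Dio3 and Sfmbt2, miR-483 and miR-184). The 5 miRNAs, the lists and the tests were chosen with earlier results of these data known.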

Additional observations from a re-analysis of the deposited data

How the results depend on the processing

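In the main edgeR fit of all 15 libraries, the number of the 5 miRNAs called was 0 in each comparison. It differed from that in 2 places: DESeq2 called 2 in ICH versus sham and 1 in BYHWD versus sham, and leaving out 1 library in turn gave 0 to 1 in BYHWD versus sham (0 to 0 in ICH versus sham and in BYHWD versus ICH). The cause was not tested. Over all tested miRNAs, DESeq2 called 48 in ICH versus sham and 52 in BYHWD versus sham, against 5 and 15 by edgeR, and limma-voom called 7 and 11. Leaving out 1 library gave −1.01 to −0.74 for miR-298-5p and −1.28 to −0.68 for miR-335-5p in ICH versus sham. Directions turned in 5 results. In BYHWD versus sham miR-296-5p was 0.05 without sham 1 and 0.05 without sham 2 (−0.33 to 0.05 over libraries left out in turn), miR-296-3p was −0.01 without BYHWD 4 and BYHWD 5, and miR-335-3p was 0.04 without TMM scaling; the last 2 settings were chosen after seeing the data. In ICH versus sham the log2 arm ratio difference of miR-296 was 0.05 without sham 2, and that of miR-335 was 0.30 without sham 4 and sham 5. Leaving out 1 library gave −0.32 to 0.05 and −0.46 to −0.10 for the miR-296 arm ratio in ICH and in BYHWD versus sham, and −0.74 to −0.12 and −1.13 to −0.51 for that of miR-335. Taken over all libraries at once, 2 of 10 pairs of miRNAs passed the threshold for r, 3 with all 15 libraries, 5 without centring and 4 on plain totals. Both of the 2 hold miR-298-5p, and their r includes the step between the upper and lower libraries. That count therefore does not show a relation within either set. In each of the other settings miR-335-3p with miR-296-5p and miR-335-3p with miR-296-3p passed too. With all 15 libraries these had r = 0.74 and 0.65 (permutation test, adjusted p = 0.0294 and 0.0448). In the 13 libraries with centring they had r = 0.65 and 0.63 (adjusted p = 0.105 each). Only miR-298-5p with miR-296-3p passed in every setting, with r = 0.91 (main), 0.81 (all 15 libraries), 0.90 (without centring) and 0.92 (plain totals). The pair of miR-298-5p with miR-335-3p did not pass with all 15 libraries (r = 0.64, permutation test, adjusted p = 0.103). The other pairs that passed changed with the setting, so no relation is read from them. Same-numbered libraries of different groups had correlations of −0.43 to 0.22 and share only a number. With the replicate block 0 of the 5 were called in each comparison, and over all miRNAs 5, 0 and 9 were called in ICH versus sham, BYHWD versus ICH and BYHWD versus sham, against 5, 0 and 15 without it; between 0 and 2 of 10 libraries correlated best with their own number. Depth limits miR-296-5p most, at 31 to 133 counts per library.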
